A study of Mus musculus with 4 samples.

Results

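The Bcl2 family genes help to decide, at the mitochondrion, whether a T cell lives or dies after activation. A core of 10 was examined here in Th2 cells, the CD4 T cells that secrete IL-4, IL-5 and IL-13: the antiapoptotic genes Bcl2, Bcl2l1 (the gene of Bcl-xL) and Mcl1, the BH3-only genes Bcl2l11 (Bim), Bbc3 (Puma), Pmaip1 (Noxa), Bid and Bad, and the effectors Bax and Bak1. The 10 genes were set by name as the core of the family, not by their values, although earlier results of these data were known. They were found through the RefSeq transcript that the array files give for each probe. All 10 were on the array, with 16 probes, of 18535 genes that could be named and 41173 probes in all. Each of the 16 probes was well above background, and none was saturated, on each of the 4 arrays, so no member was lost to a filter.

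In the family's usual scheme, BH3-only proteins sense stress or loss of growth factors and bind the antiapoptotic proteins. Bax and Bak, once free, permeabilise the outer mitochondrial membrane and release cytochrome c, which starts the caspases. In T cells, cytokines such as IL-2 and IL-4 are known to sustain Bcl-2 and Mcl-1, costimulation is known to induce Bcl-xL, and Bim is known for removing activated cells at the end of a response.

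Splenic CD4 T cells of female C57BL/6J mice, purified with magnetic beads, were activated through plate-bound anti-TCR-β mAb at 3 µg/ml and anti-CD28 mAb at 1 µg/ml for 2 days and then grown for 3 more days. IL-4 at 10 ng/ml and IL-2 at 2.5 ng/ml were present throughout. The cultures were made with or without the thioamide-related compound SH-2251, which acts against IL-5 production, and each was then left resting or restimulated with immobilized anti-TCR-β mAb for 4 h. The labels give SH-2251 at 1 µM in the first phase and 1 mM in the second, which is not the concentration in the methods of the study. The methods also name naive CD4 T cells as the starting cells, where the labels name splenic CD4 T cells. The 4 groups are control resting, SH-2251 resting, control restimulated and SH-2251 restimulated, and all 4 share the Th2 culture and the strain.

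RNA of each group was hybridised to 1 single-colour array, and 1 slide, scanned 1 time, carried the 4 arrays. With 1 array for each group no test was possible, and the differences below compare 4 cultures without a replicate check. Levels are log2 intensities minus the 75th percentile of the same array, which stood at 499.5 to 614.5 intensity units, and 56.0% to 56.7% of probes were well above background. Errors are technical. The error that the scanner software assigns to a spot gives a technical SD of 0.204 to 0.209 on the log2 scale for a difference between arrays, unless another value is stated. In addition, 3 probes, 1 each for Bcl2, Bcl2l1 and Bax, were printed 10 times on every array, and for these the SD over the spots is also given. Values of different probes are not comparable as levels. As RNA of whole cultures was measured, fewer cells of a type and less RNA per cell cannot be told apart.

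The labelled cell type was checked against its markers. All 6 T cell markers and all 6 Th2 markers were well above background on all 4 arrays, Gata3, the regulator of Th2 cells, lay between 5.22 and 5.87, and Il4 was at 4.69 and 4.59 in the resting and at 8.25 and 8.02 in the restimulated control and SH-2251 cells. All 6 Th2 markers were lower with SH-2251 in resting cells and 4 of 6 in restimulated cells, beside 57.4% and 57.8% of all genes. The T cell markers were likewise lower, 6 of 6 in resting and 3 of 6 in restimulated cells, so the direction was not particular to the Th2 list. In resting cells the median was -0.36 for the Th2 list and -0.22 for the T cell list. In resting cells Gata3 (-0.17), Il4 (-0.10) and Ccr4 (-0.07) differed little. Only 2 of 6, Il5 and Il13, were at least 2-fold lower there, beside 2.94% of all genes. Il5, the cytokine gene the compound is known for, read 1.04, -2.82, 6.2 and 3.19 in control resting, SH-2251 resting, control restimulated and SH-2251 restimulated cells, and was 14.5-fold lower with SH-2251 in resting and 8.05-fold lower in restimulated cells. Il13 read -1.49, -2.81, 3.28 and 2.72 in that order and was 2.49-fold and 1.48-fold lower. The part of these differences in the values of the Bcl2 family was not tested. Markers of other cells were not absent. The summed level of the B cell list (6 of 6 on the array) was 3.56, 3.89, 3.62 and 4.67 in control resting, SH-2251 resting, control restimulated and SH-2251 restimulated cells, with Pax5 not above background on any array. For the CD8 T and NK cell list (5 of 6 on the array) it was -1.69, -0.98, -1.55 and -0.77 in the same order, with Klrb1c and Ncr1 not above background. The red cell list (3 of 4 on the array) stood at -1.45, -0.49, -2.11 and -0.65, and the myeloid list (6 of 6) between 1.29 and 1.58, with Lyz2, Itgam and Fcgr1 not above background. The B cell, CD8 T and NK cell and red cell sums were thus higher with SH-2251 in both states, and their part in the values of the Bcl2 family was not tested.

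Most of the family differed little with SH-2251, and in resting cells the members that stood highest were the BH3-only genes Bcl2l11 and Bbc3. In resting cells Bcl2l11 was 2.04-fold and Bbc3 1.61-fold higher in SH-2251-treated than in control Th2 cells, and in restimulated cells they were 1.65-fold and 1.27-fold higher, with Bcl2l1 at 1.31-fold and the 10-spot Bcl2 probe at 1.33-fold between them. The BH3-only genes Bid and Bad were not higher with SH-2251 in either state. The effector Bak1 was the lowest member in resting cells, 1.37-fold below control. Restimulation went with a 4.50-fold higher Bcl2l1 in control cells and a 4.74-fold higher Bcl2l1 in SH-2251-treated cells, and with a Pmaip1 1.93-fold and 1.86-fold higher. With 1 probe for each gene, the brightest, 1 of 10 members (Bcl2l11) was at least 2-fold higher and 0 were at least 2-fold lower in the resting SH-2251 comparison, where 2.31% of 12691 genes were higher and 2.94% were lower by that much. In restimulated cells 0 members passed 2-fold with SH-2251 in either direction, against 2.68% of 12626 genes higher and 2.81% lower. On restimulation 1 member (Bcl2l1) was at least 2-fold higher in control cells, against 7.29% of 12765 genes, and the same 1 in SH-2251-treated cells, against 7.13% of 12618. None was 2-fold lower, against 7.37% and 7.02% of genes.

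Counted over the 16 probes, 1 passed 2-fold upwards with SH-2251 in resting cells (2.13% of all named probes compared were higher and 2.47% lower) and 0 in restimulated cells (2.4% higher and 2.43% lower). On restimulation 3 probes were higher and 1 was lower in control cells (7.6% and 6.58% of probes), and 3 were higher and 0 lower in SH-2251-treated cells (7.41% and 6.43%). The 3 higher probes are all of Bcl2l1 and the lower one is of Bcl2, so they stand for 2 genes. The median difference of the 10 members was 0.13 with SH-2251 in resting and 0.10 in restimulated cells, beside -0.06 and -0.06 over all genes, and -0.11 and -0.14 on restimulation of control and SH-2251-treated cells, beside -0.06 and -0.05. The family as a whole was therefore near the other genes, and its larger differences lay in single members.

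**Figure D1:**
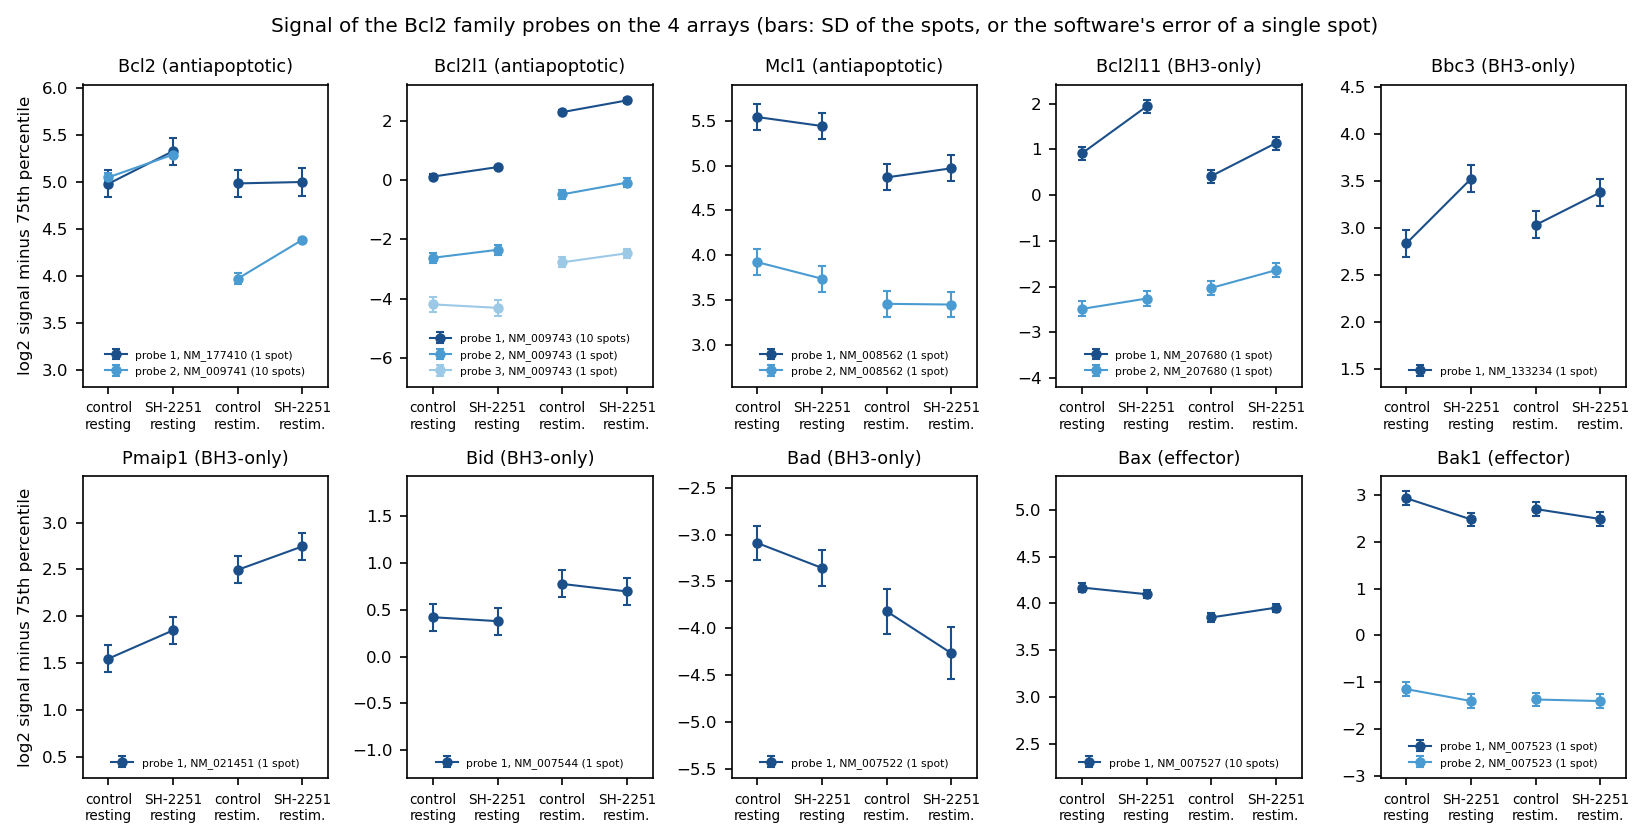
Log2 signal minus the 75th percentile of the array (y axis, with its own range in each panel) of every probe of the 10 Bcl2 family genes on the 4 arrays (x axis). Points are the array values, bars are the SD over spots for the probes with 10 spots and the software's error for single spots, and lines join control to SH-2251 within a state. Bcl2l1 was higher after restimulation on all 3 probes, and the 2 probes of Bcl2 parted after restimulation.

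Among the antiapoptotic genes, Bcl2l1 had the widest range of all 10 members over the 4 arrays, 2.57 on the log2 scale. Its protein, Bcl-xL, holds Bim, Bad and the effectors in check. The probe printed 10 times (NM_009743) read 0.12 ± 0.071 (SD of the spots) in resting control cells, 0.44 ± 0.045 in resting SH-2251-treated cells, 2.29 ± 0.063 in restimulated control cells and 2.68 ± 0.070 in restimulated SH-2251-treated cells. The restimulated arrays were thus both high and the resting arrays both low, and within each state the SH-2251 array was the higher one. Restimulated exceeded resting by 2.17 (SE from spots 0.030) in control cells and by 2.25 (SE 0.026) in SH-2251-treated cells. SH-2251 exceeded control by 0.32 (SE 0.027) in resting and by 0.40 (SE 0.030) in restimulated cells, and in none of the 4 comparisons did the spots of the arrays overlap. The spread of the spots is that of 1 hybridisation and holds nothing of the spread between cultures.

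Both other Bcl2l1 probes were also higher after restimulation. The second read -2.62 in resting control cells, -2.35 in resting SH-2251-treated cells, -0.48 in restimulated control cells and -0.09 in restimulated SH-2251-treated cells, with differences on restimulation of 2.14 (technical SD 0.223) and 2.26 (0.217). The third and dimmest read -4.19, -4.30, -2.77 and -2.47 in the same order, with differences of 1.42 (0.303) and 1.84 (0.318). On the SH-2251 difference the probes split in resting cells, where the second gave 0.27 (0.234) and the third -0.12 (0.375), and in restimulated cells they gave 0.40 (0.206) and 0.30 (0.229). Among all genes, Bcl2l1 ranked 206th highest of 12765 on restimulation in control cells and 185th of 12618 in SH-2251-treated cells.

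The promoter table of RefSeq (GRCm38.p6) holds 15 windows for 9 of the 10 members, with 1 to 3 starts for a gene, and the 250 bases before each start were searched on both strands for 8 motifs. NF-κB motifs (searched by name) were in 7.25% of all 32851 windows, STAT (TTCNNNGAA) in 7.02%, AP-1 (TGANTCA) in 6.75%, CRE (TGACGTCA) in 1.55%, FOXO (GTAAACA) in 3.17%, the E-box CACGTG in 6.02%, the p53 half-site (by name) in 7.13% and TATAAA in 12.4%. Of the 3 Bcl2l1 windows 1 held a match, an NF-κB motif at position -242 from the second start. That window, chr2:152830718-152830967 on the minus strand, is shown because this gene had the widest range, 5′ to 3′ with the motif in capitals.
Bcl2l1, start 2: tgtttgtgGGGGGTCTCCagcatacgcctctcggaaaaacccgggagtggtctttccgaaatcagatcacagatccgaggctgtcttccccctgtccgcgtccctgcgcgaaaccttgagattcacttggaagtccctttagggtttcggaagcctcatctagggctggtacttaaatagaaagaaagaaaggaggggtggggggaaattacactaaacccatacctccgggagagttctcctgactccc
The match is a description of these letters, and binding was not measured.

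**Figure D2:**
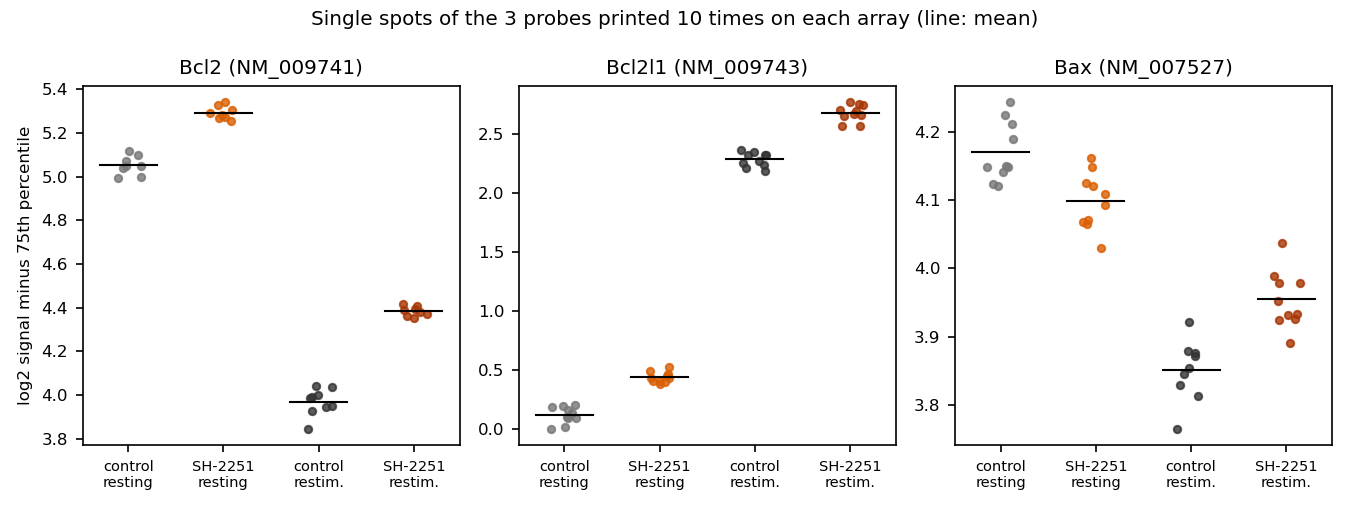
Log2 signal minus the 75th percentile (y axis, own range in each panel) of single spots of the 3 Bcl2 family probes that were printed 10 times on each array, by group (x axis), without spots marked as outliers. Lines are means over spots. The 4 groups of Bcl2 and of Bcl2l1 spots stand apart within each comparison, and those of Bax overlap between control and SH-2251 in both states.

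Bcl2, the founding survival gene of the family, gave different answers on its 2 probes, which are assigned to different transcripts. The single-spot probe of NM_177410 read 4.98 in resting control cells, 5.33 in resting SH-2251-treated cells, 4.99 in restimulated control cells and 5.002 in restimulated SH-2251-treated cells. Only the resting SH-2251 array was higher than the rest, by 0.35 over control, and restimulation made a difference of 0.00 in control cells and -0.33 in SH-2251-treated cells. The probe of NM_009741, with 8 or 9 of its 10 spots kept, read 5.05 ± 0.044 (SD of the spots), 5.29 ± 0.030, 3.97 ± 0.061 and 4.38 ± 0.021 in the same order.

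On that probe Bcl2 was lower after restimulation. The difference was -1.08 (SE from spots 0.025) in control cells, which left 47.2% of the resting signal, and -0.91 (SE 0.013) in SH-2251-treated cells, which left 53.3%. SH-2251 exceeded control by 0.24 (SE 0.019) in resting and by 0.41 (SE 0.022) in restimulated cells, and the spots did not overlap in any of the 4 comparisons. The probe sequences were not analysed here, so where on the transcripts the probes lie is not stated. The window before the only RefSeq start of Bcl2 held none of the 8 motifs.

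Mcl1 encodes a short-lived survival protein that T cells need at every stage. Its brighter probe (NM_008562) read 5.54 in resting control cells, 5.44 in resting SH-2251-treated cells, 4.87 in restimulated control cells and 4.97 in restimulated SH-2251-treated cells, and its dimmer probe read 3.92, 3.74, 3.46 and 3.45. Both probes were lower after restimulation, by 0.67 and 0.47 on the brighter and 0.47 and 0.29 on the dimmer probe in control and SH-2251-treated cells. The differences with SH-2251, -0.10 in resting and 0.10 in restimulated cells on the brighter probe, were within the technical SD, and the resting one changed sign under quantile normalization (0.03). On restimulation the 3 antiapoptotic genes therefore did not go one way, with Bcl2l1 higher, Mcl1 lower and Bcl2 lower on 1 probe of 2 in control cells.

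Bcl2l11 encodes Bim, which binds all the antiapoptotic proteins. Its brighter probe (NM_207680) read 0.91 in resting control cells, 1.94 in resting SH-2251-treated cells, 0.41 in restimulated control cells and 1.14 in restimulated SH-2251-treated cells. Both SH-2251 arrays were above both control arrays. The difference with SH-2251 was 1.03 in resting cells, 281st highest of 12691 genes, and 0.72 in restimulated cells, 624th of 12626. The dimmer probe read -2.49, -2.26, -2.03 and -1.64 in the same order, with smaller differences of 0.23 (technical SD 0.228) and 0.39 (0.216). With the mean of both probes the resting difference was 0.63, and with the normexp background correction 0.79, so the gene passed 2-fold in neither. With normexp without spots of uneven background it was 0.98, also short of 2-fold.

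The 2 probes of Bcl2l11 went opposite ways on restimulation. The brighter one was lower, by 0.50 in control cells and 0.80 in SH-2251-treated cells, and the dimmer one was higher, by 0.46 (technical SD 0.226) and 0.62 (0.218). No direction on restimulation is therefore given for this gene.

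Bbc3 encodes Puma, a BH3-only protein known as a target of p53 and of FOXO factors. Its single probe (NM_133234) read 2.84 in resting control cells, 3.53 in resting SH-2251-treated cells, 3.03 in restimulated control cells and 3.38 in restimulated SH-2251-treated cells. Here too both SH-2251 arrays were above both control arrays, by 0.69 in resting cells (601st highest of 12691 genes) and by 0.35 in restimulated cells. The restimulation differences, 0.20 in control cells and -0.14 in SH-2251-treated cells, were within the technical SD. With normexp the resting SH-2251 difference was 0.37, and with normexp without spots of uneven background it was 0.64.

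As Bcl2l11 and Bbc3 were the 2 members highest with SH-2251 in resting cells, the windows before their starts are given where they held the FOXO motif, in capitals, 5′ to 3′ on the strand of the gene. For Bcl2l11 it lies at position -227 from the first of 2 starts (chr2:128125788-128126037, plus strand), and for Bbc3, on the opposite strand and so read as TGTTTAC, at position -167 from the second of 3 starts (chr7:16310011-16310260, plus strand).
Bcl2l11, start 1: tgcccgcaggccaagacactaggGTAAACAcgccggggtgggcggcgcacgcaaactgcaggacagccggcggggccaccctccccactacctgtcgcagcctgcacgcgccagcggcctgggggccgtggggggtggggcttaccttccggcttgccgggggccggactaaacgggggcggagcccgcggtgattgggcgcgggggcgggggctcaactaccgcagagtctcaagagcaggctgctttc
Bbc3, start 2: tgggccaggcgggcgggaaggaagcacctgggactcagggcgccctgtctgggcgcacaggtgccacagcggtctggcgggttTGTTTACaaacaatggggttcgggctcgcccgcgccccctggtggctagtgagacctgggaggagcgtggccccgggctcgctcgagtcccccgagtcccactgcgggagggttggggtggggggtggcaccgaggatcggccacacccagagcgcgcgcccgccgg
No other member window held this motif, which was in 3.17% of all 32851 windows. Pmaip1 was the member without a window. The motif shown was picked from the 8 searched, and its part in the SH-2251 differences was not tested. Bbc3 also held 2 overlapping NF-κB matches (positions -137 and -136 from its first start) and an E-box (position -64 from its last start), and Bax held an E-box (position -9) and a p53 half-site (position -201). The remaining windows, of Bcl2, Mcl1, Bid, Bad, Bak1 and the other starts of Bcl2l1 and Bcl2l11, held none of the 8 motifs. The GC content of the member windows ran from 47.6% to 81.6%, beside a median of 52.4% over all windows, and no FOXO factor was measured at these sites.

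Pmaip1 encodes Noxa, which binds Mcl-1. Its probe (NM_021451) read 1.55 in resting control cells, 1.85 in resting SH-2251-treated cells, 2.50 in restimulated control cells and 2.75 in restimulated SH-2251-treated cells. Both restimulated arrays were above both resting arrays, by 0.95 in control cells and 0.90 in SH-2251-treated cells, ranks 1009 of 12765 and 1079 of 12618 from the highest. The SH-2251 differences were 0.30 and 0.25.

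Bid, which is activated by caspase-8 and links death receptors to mitochondria, read 0.42, 0.38, 0.78 and 0.70 in control resting, SH-2251 resting, control restimulated and SH-2251 restimulated cells. The restimulated arrays were higher by 0.36 and 0.32, and the SH-2251 differences of -0.04 and -0.08 were within the technical SD. Bad, a BH3-only protein held inactive by survival kinases, read -3.09, -3.36, -3.82 and -4.27 in the same order and was lower on both restimulated arrays, by 0.73 (technical SD 0.300) and 0.91 (0.336). Its probe lay close to background, and its resting SH-2251 difference of -0.27 (0.265) became 0.71 with normexp. With normexp without spots of uneven background it was -0.17.

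Of the 2 effectors, Bax differed little with SH-2251. The Bax probe (NM_007527), with 10 spots, read 4.17 in resting control cells, 4.10 in resting SH-2251-treated cells, 3.85 in restimulated control cells and 3.96 in restimulated SH-2251-treated cells. Its spots overlapped between control and SH-2251 in both states, where the differences were -0.07 and 0.10, and they did not overlap between resting and restimulated control cells, where the difference was -0.32. Bak1 read 2.93, 2.48, 2.70 and 2.49 on its brighter probe and -1.15, -1.41, -1.37 and -1.41 on its dimmer one, in the same order. It was lower with SH-2251 in resting cells by 0.45 and 0.25 on the 2 probes, and by 0.21 and 0.03 in restimulated cells. In resting cells the brighter probe made Bak1 the lowest of the 10 members with SH-2251, 1447th lowest of 12691 genes.

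**Figure D3:**
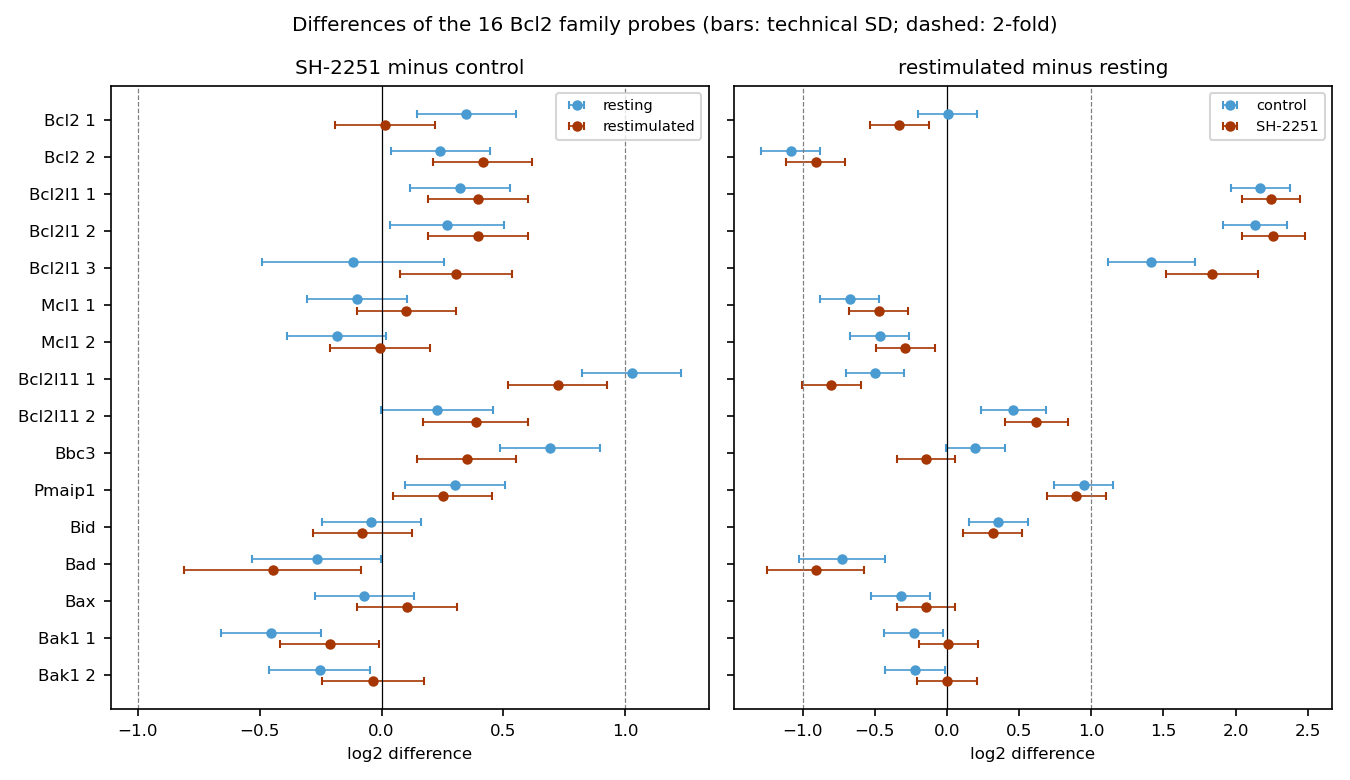
Log2 differences (x axis) of the 16 Bcl2 family probes (y axis, numbered by brightness within a gene), SH-2251 minus control on the left and restimulated minus resting on the right. Bars are the technical SD from the scanner software and dashed lines mark 2-fold. On the left only the brighter Bcl2l11 probe in resting cells passes 2-fold, and on the right the 3 Bcl2l1 probes in both treatments and the second Bcl2 probe in control cells.

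Whether the SH-2251 difference itself differed between the states was described as restimulated minus resting, with a technical SD of 0.289. Bbc3 (-0.34), the single-spot Bcl2 probe (-0.33) and the brighter Bcl2l11 probe (-0.30) had a smaller SH-2251 difference in restimulated cells. Bak1 (0.24), Mcl1 (0.20) and Bax (0.17) had the opposite sign, and Bcl2l1 (0.07), Pmaip1 (-0.05), Bid (-0.04) and Bad (-0.18, technical SD 0.45) were nearer to 0 or less precise. The 10-spot Bcl2 probe gave 0.17 and the dimmer Bcl2l11 probe 0.16 (technical SD 0.315), both opposite in sign to the other probe of the gene. With the mean of its probes Bcl2l11 stood at -0.07, and with normexp Bcl2l11 stood at -0.03 and Bbc3 at 0.00. With normexp without spots of uneven background Bcl2l11 was at -0.22 and Bbc3 at -0.27. Without replicates none of these could be tested.

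The rest of the family and the pathways around it were described through 6 lists of 89 genes, of which 85 were on the array, by their counts past 2-fold and their medians. Of 16 other family genes, 13 were on the array and 11 could be compared. With SH-2251, 3 of 11 were at least 2-fold lower in resting cells, beside 2.94% of all genes: Bcl2l15 (-1.64), Bcl2l14 (-1.63) and Bik (-1.10), the last a BH3-only gene. In restimulated cells these stood at -1.5, -1.14 and -0.77, so that 2 of 11 passed, beside 2.81%. A second Bcl2l14 probe gave -0.79 and -0.43. None was higher by that much, beside 2.31% and 2.68% of all genes, and the list's medians were -0.28 and -0.13.

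On restimulation the survival gene Bcl2a1 (A1), a known NF-κB target, stood highest in that list. Bcl2a1b was higher by 3.27 in control cells and 3.56 in SH-2251-treated cells and Bcl2a1c by 3.08 and 3.42, but these genes are near-identical copies, so the probes may not tell them apart. They were the 2 of 11 at least 2-fold higher, beside 7.29% and 7.13% of all genes. Lower by at least 2-fold in control cells were 4 of 11, beside 7.37%, namely Bnip3 (-1.55), Bmf (-1.41), Bcl2l14 (-1.29) and Bcl2l15 (-1.16), and in SH-2251-treated cells these stood at -1.45, -1.65, -0.80 and -1.02, so that 3 of 11 passed, beside 7.02%. The second Bcl2l14 probe gave -0.82 and -0.46. Another Bmf probe gave 0.16 and 0.02, so the probes of this BH3-only gene disagree.

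Downstream of the mitochondrion, 18 of 18 genes of the apoptosome, caspases and inhibitors of apoptosis were compared, and 0 passed 2-fold with SH-2251 in either state (medians -0.06 and 0.00). On restimulation 2 of 18 were at least 2-fold higher in both treatments, beside 7.29% and 7.13% of all genes, and 1 of the control and 2 of the SH-2251 differences were at least 2-fold lower, beside 7.37% and 7.02%. The executioner caspase gene Casp6 was higher by 1.56 in control cells and 2.11 in SH-2251-treated cells, and the inhibitor Birc3 (cIAP2) by 1.24 and 1.59. Casp9, the initiator of the apoptosome, was lower by 1.25 and 1.20, and Birc5 (survivin) stood at -0.99 and -1.15.

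In the death receptor pathway all 13 genes were compared. Fas, the death receptor, was higher with SH-2251 by 0.58 in resting and 1.08 in restimulated cells on its brighter probe, and a second probe gave -0.07 and 0.51. Its ligand Fasl was lower by 0.85 and 1.20, and by 0.32 and 1.16 on a second probe. No other gene of the list passed 2-fold with SH-2251, and these passed it in restimulated cells only, 1 of 13 in each direction beside 2.68% of all genes higher and 2.81% lower. On restimulation 4 of 13 were at least 2-fold higher in control cells, beside 7.29% of all genes, namely Tnf (2.59), Fasl (1.88), Tnfrsf10b (1.38) and Cflar (1.38), the gene of the caspase-8 inhibitor c-FLIP. In SH-2251-treated cells these stood at 2.28, 1.53, 1.67 and 1.96, and Fas (1.28) also passed, which makes 5 of 13 beside 7.13%. On restimulation the second Fasl probe gave 1.51 for control and 0.68 for SH-2251-treated cells, and the second Fas probe 1.59 and 2.17.

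Of 13 genes for p53 and its targets, 12 were compared, and 0 passed 2-fold with SH-2251. In resting cells 11 of the 12 were above 0, with a median of 0.34, beside 42.5% of all genes above 0 and a median of -0.06. The 11 included Sesn1, which was at 0.00 after rounding. Trp53 itself was at -0.15. In restimulated cells 8 of 12 were above 0, with a median of 0.25, beside 42.2% of all genes. On restimulation of control cells 2 of 12 were at least 2-fold higher and 1 lower, beside 7.29% and 7.37% of all genes, with Perp higher by 2.88, Sesn2 higher by 1.36 and Trp53inp1 lower by 1.10. In SH-2251-treated cells Perp, Sesn2 and Trp53inp1 stood at 1.87, 0.63 and -0.92, so that 1 of 12 passed, beside 7.13%. Their differences with SH-2251 were 0.69, 0.71 and 0.65 in resting and -0.32, -0.03 and 0.83 in restimulated cells. The sign of Perp thus turned between the states, and Sesn2 was near 0 in restimulated cells.

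Of 18 genes of the survival signals upstream, 17 were on the array and 14 or 15 could be compared. With SH-2251 none passed 2-fold in resting cells, beside 2.31% of all genes higher and 2.94% lower. In restimulated cells Pim2, a survival kinase gene, was higher by 1.17 (1.10 and 1.15 on its other probes). Il2 was lower there by 1.53 (1.01 on a second probe), each 1 of 15 beside 2.68% and 2.81% of all genes. Il2 was not well above background in resting cells, which makes it at least 10.1-fold higher after restimulation of control and at least 3.21-fold higher after restimulation of SH-2251-treated cells. The second Il2 probe gave smaller lower bounds, log2 differences of 1.47 and 0.33. Also higher on restimulation of control and SH-2251-treated cells were Stat5a, which carries IL-2 signals, by 2.47 and 3.23, and Il2ra by 1.06 and 1.46, although a second Il2ra probe gave -0.21 and 0.31. Foxo1 was higher by 0.94 and 1.22 (1.25 and 1.27 on a second probe), Il2rg by 0.92 and 1.05, and Il4ra stood at -1.02 and -0.88. In control cells 3 of 15 were thus at least 2-fold higher and 1 lower, and in SH-2251-treated cells 5 and 0, beside the same shares of all genes as above. Foxo3 and Rel were not above background on any array. In the list for turnover of MCL1 and BIM, with 10 of 11 genes compared, 0 passed 2-fold in any of the 4 comparisons. The share of all genes past 2-fold in 1 direction ran from 2.31% to 7.37%. The medians of the turnover list lay between 0.04 and 0.28.

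**Figure D4:**
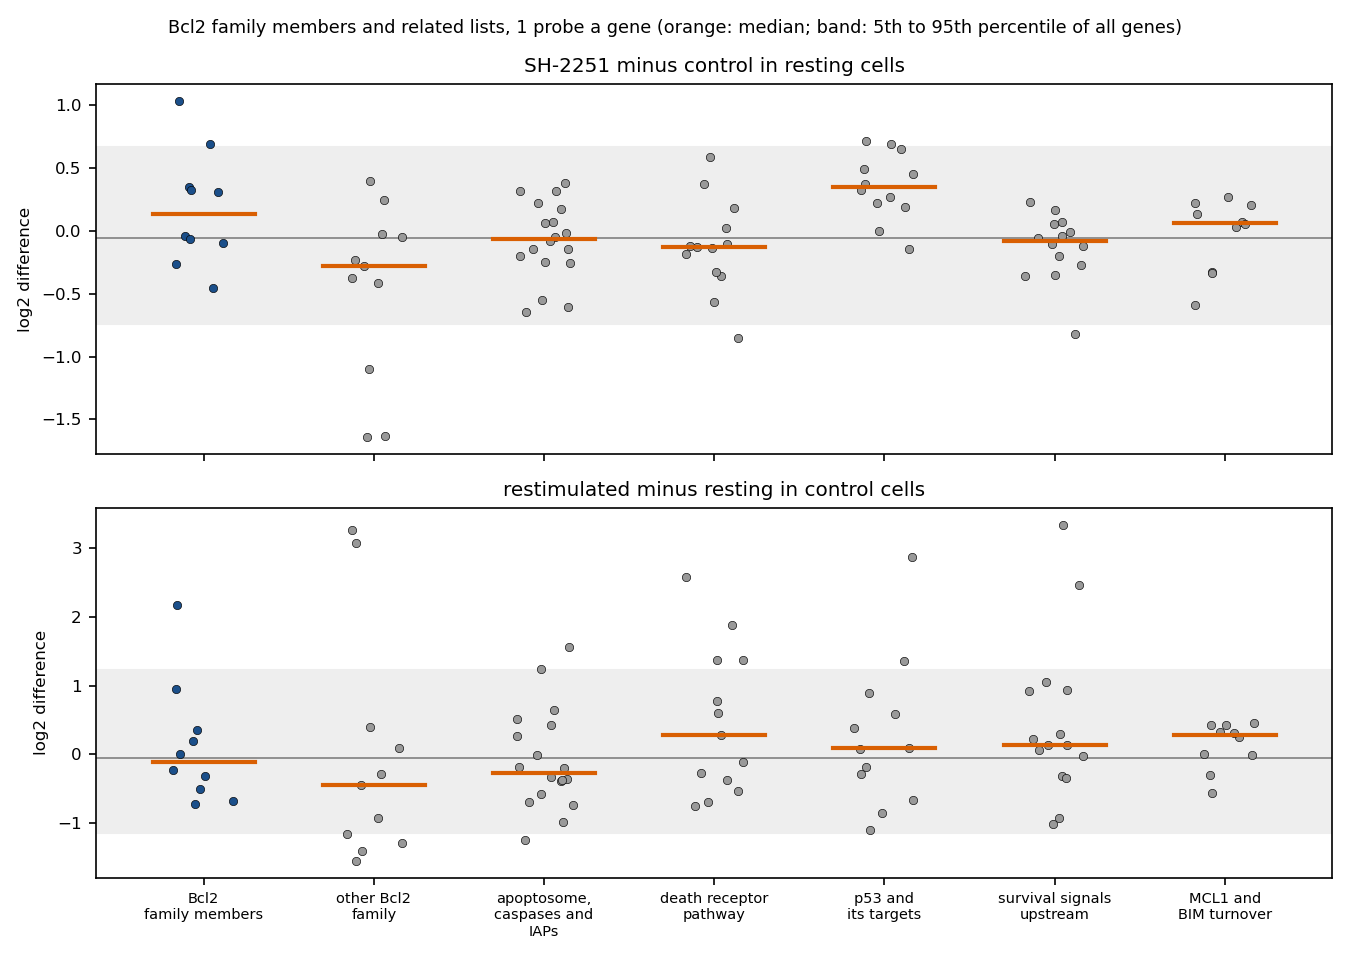
Log2 differences (y axis) of the 10 Bcl2 family members and of the 6 lists (x axis), 1 probe for each gene, for SH-2251 minus control in resting cells (top) and restimulated minus resting in control cells (bottom). Points are genes, with Il2 in the bottom panel a lower bound, orange lines are list medians, the grey line is the median of all genes and the band runs from their 5th to 95th percentile. Bcl2l11 and Bbc3 lie above the band in the top panel (upper edge 0.66) and Bcl2l1 above it in the bottom panel (1.23).

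Genes with the most similar pattern were named for the 2 members with the widest range, by the Euclidean distance between the 4 array values after each gene's own mean was subtracted, among 11511 genes above background on all 4 arrays. Nearest to Bcl2l1 were Ier5 (distance 0.036), Cd69 (0.052), Slc25a33 (0.145), Adora2b (0.146) and Jak2 (0.150). Cd69, an early activation marker, read -0.63, -0.32, 1.59 and 1.97 in control resting, SH-2251 resting, control restimulated and SH-2251 restimulated cells. Nearest to the brighter Bcl2l11 probe, whose range was 1.52, were Npcd (0.023), Spata6 (0.088), Zbed3 (0.106), Slc6a4 (0.113) and Ift172 (0.145). The dimmer Bcl2l11 probe, with a range of 0.85 and the other direction on restimulation, was not used. Npcd (-3.97) and Zbed3 (-4.04) in control restimulated cells lay near the lowest level well above background there, -4.65. The distances rest on 4 arrays and are a description.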

How the data were processed

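Total RNA of 4 Th2 cultures, 1 for each group, was labelled with Cy3 and hybridised to Agilent whole mouse genome arrays. The authors deposited scanner output of Feature Extraction 10.7 with the processed intensity of each spot, already corrected for background, and a table of log2 values. In that deposited log2 list, between 99.6% and 99.7% of probes were within 0.01 of the log2 intensity minus a constant of the array, which the text uses as an alternative. Here control spots and outlier spots (77 to 106 for each array) were left out, spots of a probe were averaged, and log2 intensity minus the 75th percentile of each array was taken. Probes were named through RefSeq accessions (assembly GRCm38.p6), which matched 27190 of 41173 probes (66.0%). The array design names another build (mm9), so the only coordinates given are those of the promoter windows, in GRCm38.p6.

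A gene is its probe of highest mean signal and entered a comparison if 1 or both arrays of the pair measured it well above background. If only 1 did, the other array took the lowest well-measured signal or its own, whichever was higher, so that the difference is a bound. A difference of at least 2-fold is counted. No test, SD or p-value across groups was computed. The members and lists were chosen with earlier results of these data known. Named are all members with every probe, genes of the 6 lists at least 2-fold different in any comparison, and the 5 genes nearest to the 2 members of widest range. Trp53, Sesn1, Foxo3, Rel and the cell type markers are named outside that rule, for their role in a statement. Alternatives were median scaling, quantile normalization, normexp with offset 50, the authors' values, other filters, other probes and thresholds of 1.5-fold and 3-fold. The comparison was tested on simulated data. Software was limma 3.58.1 in R 4.3.3, and pandas 2.3.3, numpy 2.4.6 and matplotlib 3.10.9 in Python 3.11.15.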

Additional observations from a re-analysis of the deposited data

How the results depend on the processing

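With 1 array for each group, all counts and differences are without a replicate check, and a Th2 culture grown again could give other values. No paired analysis was possible because each group has 1 sample and no result comes from a test. The count of members 2-fold or more above control in resting SH-2251-treated cells, 1 (Bcl2l11), was 0 with normexp, 0 with normexp without spots of uneven background, 0 with the mean of all probes and 0 at a 3-fold threshold, and 2 at 1.5-fold, where restimulated cells gave 1. On restimulation of control cells, counting every probe gave 1 lower and 3 higher, a 1.5-fold threshold 2 lower and 2 higher, and the 10-spot probe of Bcl2, an alternative chosen after seeing the data, 1 lower. On restimulation of SH-2251-treated cells, normexp gave 1 lower (Bad, -1.20) and 2 higher (Bcl2l1 and Pmaip1), with a member median of 0.13 in place of -0.14, counting every probe gave 3 higher, and 1.5-fold gave 2 lower and 2 higher. With normexp without spots of uneven background, restimulation of SH-2251-treated cells gave 0 lower and 1 higher. The member median was then -0.14 and Bad stood at -0.325. The cause was not tested. Of 50 differences of single members (10 members in 4 comparisons and in the difference between states), normexp moved 19 by more than the technical SD, the mean of all probes 6, the 10-spot Bcl2 probe 4 and normexp without uneven spots 2. Median scaling, quantile normalization, the authors' values, the other filters and keeping outlier spots moved 0 of 50. The other filters could move none, because every member passes them in each comparison. Median scaling shifts all members of a comparison alike, by less than the technical SD. The authors' values are, for nearly all probes, also log2 intensity minus a constant of the array. For these settings the 0 is therefore no check on the members. Across all settings the restimulation difference of Bcl2l1 in control cells ran from 1.91 to 2.18 and that of Bcl2 from -1.08 to 0.06. Signal over background limits Bad most, whose technical SDs were the widest among the brightest probes.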
